A study of Homo sapiens with 12 samples.

Results

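Homologous recombination repairs a break in DNA by copying the intact sister chromatid, and the Fanconi pathway unhooks crosslinked strands and hands the resulting breaks to it. The 34 genes described here were listed by name and function, but with earlier results of these data known. Their shares beside those of all genes are therefore a description. They are the damage kinases, the factors that trim a break, the BRCA proteins and the recombinase paralogs. The helicases, the Fanconi proteins and the nucleases that finish the repair complete the list. All 34 had a row among the 61806 of the LP-1 table and among the 19130 of the U266 table. LP-1 and U266 are established multiple myeloma lines, tumours of antibody-secreting plasma cells. Each line was treated for 12 h with dihydroartemisinin (DHA), an endoperoxide antimalarial that iron activates, at its IC50, or with the same amount of the solvent DMSO. The 4 groups (LP-1 with DMSO, LP-1 with DHA, U266 with DMSO, U266 with DHA) held 3 libraries each, all wild type per the labels. The labels give no concentration. They also do not say whether the libraries of a group were separate cultures, and p-values therefore measure the spread of these libraries alone, which may be technical.

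A double-strand break is first sensed by the MRN complex (MRE11, RAD50 and NBN), which recruits the kinase ATM, and single-stranded DNA recruits ATR. RBBP8 (CtIP) starts the trimming of the ends, and BRCA1 with BARD1, PALB2 and BRCA2 then load the recombinase that searches the sister for homology. In the Fanconi pathway a core complex places ubiquitin on the FANCI and FANCD2 pair, which opens the way for nucleases such as SLX4 with MUS81 and EME1. Many of these genes are transcribed mainly around S phase in dividing cells.

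Of the 34 genes, BRCA1 and BRCA2 were the pair that passed the test upwards in both lines. The 250 bases before their transcription starts are shown for that reason (RefSeq, GRCh38.p14, read 5′ to 3′ on the gene's own strand). In LP-1 BRCA2 was tested only because of its level with DHA. Capitals mark the motifs found among those searched on both strands: CCAAT, the box bound by NF-Y, and TTCCCGC, an E2F-type element. In the minus-strand BRCA1 window, chr17:43125365-43125614, CCAAT began 175 bases before the start. TTCCCGC lay on the opposite strand, its first printed base 47 bases before the start. No searched motif was found in the plus-strand BRCA2 window, chr13:32315258-32315507.
BRCA1: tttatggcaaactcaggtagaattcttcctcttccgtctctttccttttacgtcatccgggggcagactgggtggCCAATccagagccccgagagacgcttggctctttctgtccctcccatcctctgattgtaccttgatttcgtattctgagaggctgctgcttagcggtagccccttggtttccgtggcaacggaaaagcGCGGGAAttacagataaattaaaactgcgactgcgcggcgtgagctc
BRCA2: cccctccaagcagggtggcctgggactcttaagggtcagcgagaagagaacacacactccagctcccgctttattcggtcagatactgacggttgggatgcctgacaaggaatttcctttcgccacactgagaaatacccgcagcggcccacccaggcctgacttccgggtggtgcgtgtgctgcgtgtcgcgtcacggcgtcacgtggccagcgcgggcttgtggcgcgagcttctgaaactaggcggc
The table of promoters held 31 of the 34 genes (NBN, RAD54B and FANCI had no entry). TTCCCGC was found in 7 of the 31 windows (22.6%), against 5.52% of 35116 promoter windows of the same length in the table. The 7 were those of BRCA1, RAD51D, RAD54L, BLM, FANCC, FANCG and FANCL. TTGGCGC, the other E2F-type element searched, was found in 1 window, that of EME1 (3.23%, against 2.56% of all). CCAAT was found in 14 windows (45.2%, against 32% of all), TTTGAA, a cell cycle homology element, in 3 (9.68%, against 13.3%), and its variant TTCGAA in none (1.19% of all). These matches are a description of the letters. Of the 7 genes with TTCCCGC, BRCA1 and RAD51D were called higher with DHA in LP-1 and none lower, and FANCC was not tested. Of all tested repair genes 34.5% were called higher there and 3.45% lower, and of all tested genes 20.0% and 20.2%. In U266 BRCA1 and BLM were called higher and FANCG lower. The shares there were 15.2% and 6.06% of the tested repair genes, and 21.1% and 19.6% of all. A link between motif and change was not tested.

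Values are FPKM, reads scaled by exon length and library size, as deposited, and changes are differences of log2(FPKM + 1), which understate the change of low genes. A gene was tested where at least 3 of a line's 6 libraries reached an FPKM of 1, and adjusted p are two-sided limma values, adjusted by Benjamini and Hochberg's method over every gene tested in the line, with a threshold of 0.05. Reads in genes, recovered from the steps of the low values, ranged over 12.7 to 16.4 M for LP-1 libraries and 10.5 to 22.1 M for U266 libraries, so 3 reads of a 2 kb transcript were worth 0.0857 to 0.112 FPKM and 0.0687 to 0.145 FPKM. The steps cannot tell a depth from its multiples, and the lowest that gave whole reads was taken, so that read counts here could be too low by a whole factor. Depth is thus ample for most of the 34 genes, and thinnest for FANCB in LP-1, at 19 to 42 reads. Plasma cell markers stood at summed levels of 996 to 1358 FPKM with DMSO and 931 to 943 FPKM with DHA in LP-1, and at 1045 to 1064 and 706 to 773 FPKM in U266, with 7 of 8 at a mean of 1 FPKM or more in each line. Markers of T and NK cells, monocytes, erythroid cells and stroma summed to at most 5.29 FPKM per list in LP-1, where CD3D and FCGR3A were at 0 throughout. In U266 they summed to at most 11.6 FPKM, and in each of these lists at most 1 gene reached a mean of 1 FPKM. In bulk RNA, fewer cells of a kind or phase and less RNA per cell cannot be told apart.

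In each line 1 library stood apart. LP-1 DMSO replicate 3 was the lowest of its group in 21 of the 29 tested repair genes. Its median was -0.20 (log2) against the mean of the other libraries of its group, where all tested genes had -0.05. In that library genes with exons over 8 kb lay 0.23 below the mean of all 3 DMSO libraries (median log2 difference -0.23), whereas in the 3 DHA libraries they lay 0.22 to 0.24 above it. U266 DHA replicate 3 held 18399 genes above 0, against 14682 to 14992 in the other U266 libraries. Among the repair genes it was not singular: it was the lowest of its group in 17 of 33, but DMSO replicate 2 was so in 18, and DHA replicate 2 was the highest of its group in 17. The summed T and NK cell, monocyte and stromal markers of DHA replicate 3, at 10.8, 5.59 and 5.13 FPKM, were the highest of the U266 libraries, and CD4, at 3.71 FPKM there, was at 0 in the other 5. Results are therefore also given without these libraries.

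In LP-1, DHA was followed by a rise of part of the recombination machinery. Of 29 tested genes 10 were called higher (34.5%), where 20.0% of the 12514 tested genes were called higher, and 1 was called lower (3.45%), where 20.2% of all were; in either direction it was 37.9%, against 40.2% of all. The risers were BRCA1, BRCA2, RBBP8, ATR, XRCC2, NBN, RAD51D, PALB2, CHEK1 and FANCE, and the gene that fell was CHEK2. The median change was 0.21 over these 29 and 0.01 over all tested genes. The DHA values lay above all DMSO values in 16 genes (55.2%, against 30.2% of all tested genes) and below in 4 (13.8%, against 28.6%), and overlapped in 9 (non-overlap over all tested genes was 58.8%). BRCA2 and RAD50 were tested only because they reached 1 FPKM with DHA, and FANCL only because it did with DMSO. With no filter 9 of the 34 were called higher and 1 lower, where 6.84% and 7.60% of 31244 genes were. Without DMSO replicate 3, FANCL missed the filter and 13 of 28 were called (46.4%, where 56% of all genes were), 11 higher (39.3%, against 28.9%) and 2 lower (7.14%, against 27%). The 11 calls above kept their direction there. Without DHA replicate 1, 2 or 3, when BRCA2 missed the filter, 6, 7 and 7 of 27 were called, and the share of all genes called fell to 23%, 22.9% and 23.4% in the same fits.

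In U266, calls among these genes were fewer than among all genes. Of 33 tested genes 5 were called higher (15.2%, where 21.1% of 10422 tested genes were), namely EME1, BRCA2, BARD1, BLM and BRCA1, and 2 were called lower (6.06%, where 19.6% of all were), BRIP1 and FANCG. Called in either direction were thus 21.2%, against 40.7% of all. The largest of these changes was 0.41, and the median over the 33 was 0.04, beside 0.02 over all tested genes. DHA values lay above all DMSO values in 6 genes (27.6% of all tested genes), below in 7 (23.9%) and overlapped in 20 (non-overlap over all tested genes was 51.5%). The split of calls moved with the scaling: it was 4 higher and 5 lower with TMM-style scaling (27.3% called, against 39.6% of all genes) and 5 higher and 6 lower with quantile normalization (33.3%, against 41%). With no filter 2 genes were called higher and 1 lower, where 8.99% and 8.70% of 18552 genes were. In 1 fit of all 12 libraries, which tested 29 of them, 2 were called, EME1 and RAD54B, both higher (6.9%, against 28.6% of all genes). Without DHA replicate 3, 8 were called higher (24.2%, against 21.1% of all genes) and 1 lower (3.03%, against 21%), with 6 of the 7 calls shared.

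**Figure D1:**
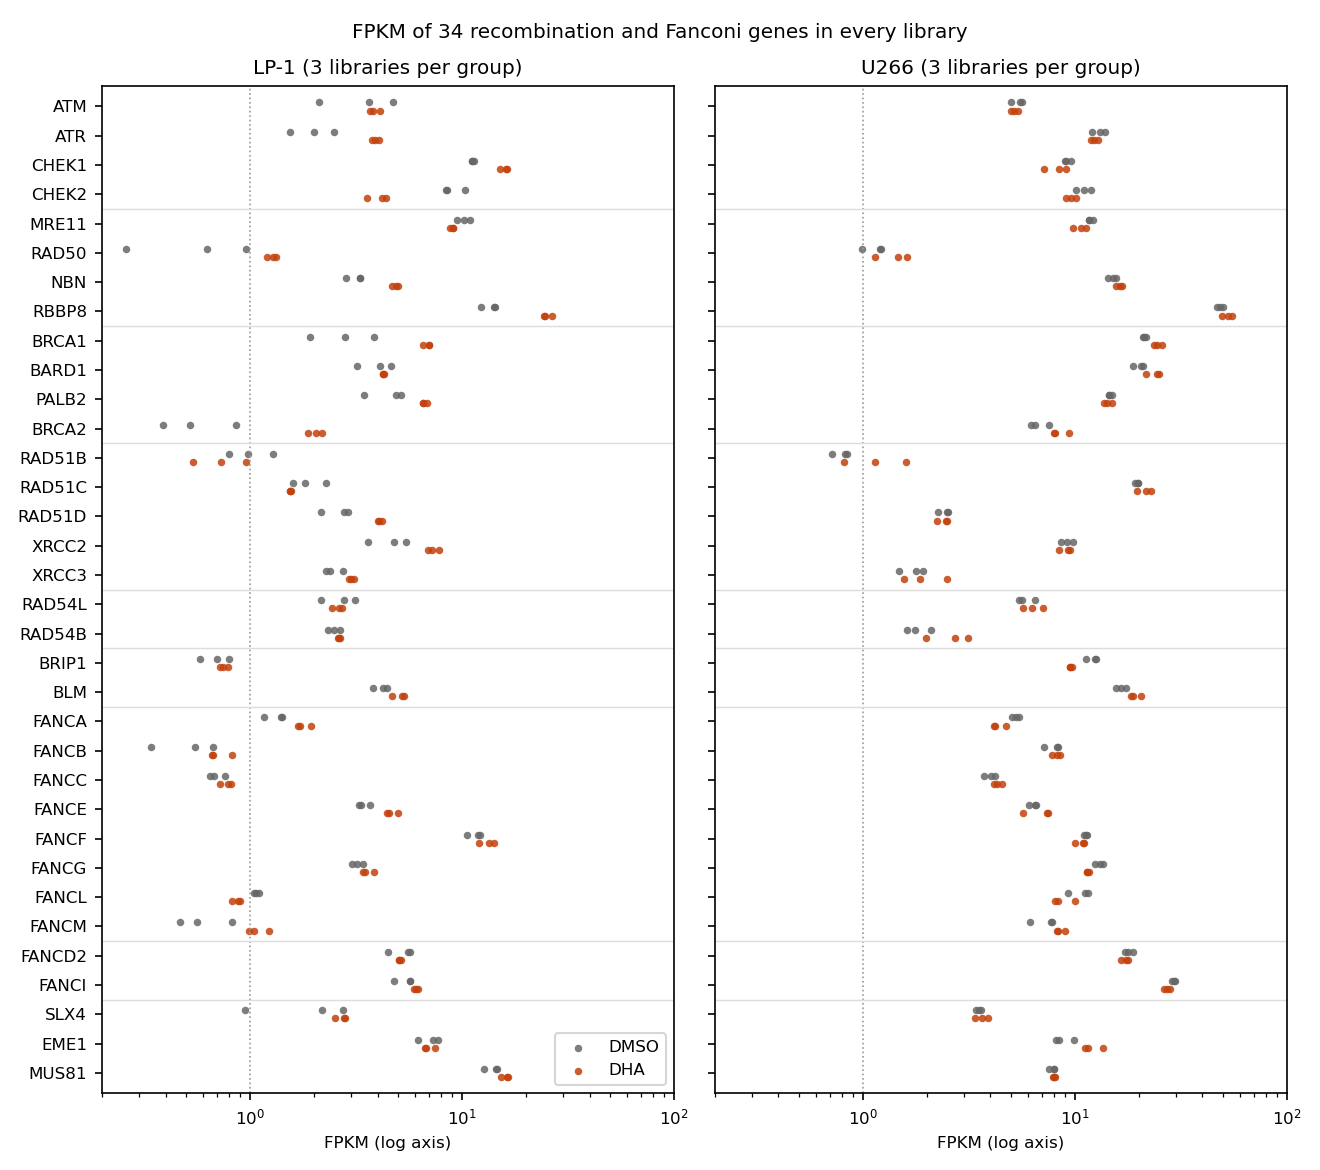
FPKM (log axis) of the 34 genes in every library, LP-1 on the left and U266 on the right, with 3 DMSO points (grey) and 3 DHA points (orange) per gene and a dotted line at 1 FPKM. In LP-1 the DHA points of BRCA1, at 6.54 to 6.99, lie to the right of all DMSO points, at 1.92 to 3.86, and those of CHEK2 lie to the left; in U266 most pairs of groups overlap.

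Among the damage kinases, ATR and CHEK1 rose in LP-1, whereas of 10 checkpoint partners in the wider list 2 were called higher there and 1, ETAA1, lower. ATR, the kinase that answers single-stranded DNA (ENSG00000175054, chromosome 3, 142449235 to 142578826, GRCh38), was at 2.01, 2.48 and 1.54 FPKM in the LP-1 DMSO libraries and at 4.05, 3.88 and 3.75 FPKM with DHA. All 3 DHA values were above all DMSO values, a change of 0.71 ± 0.13 (limma estimate ± SE, n = 3 per group here and below; adjusted p = 0.00663). It was at 13.9, 12.0 and 13.2 FPKM in the U266 DMSO libraries and at 12.3, 12.9 and 11.9 FPKM with DHA, and these groups overlapped (-0.07 ± 0.07, adjusted p = 0.454). An antisense gene, AC109992.1, shares 16.4% of the exon bases of ATR, and the labels do not say whether strand was used in counting. CHEK1, the kinase that ATR activates (ENSG00000149554, chromosome 11, 125625136 to 125676255), was at 11.4, 11.1 and 11.2 FPKM with DMSO and at 15.2, 16.3 and 16.1 FPKM with DHA in LP-1. That rise of 0.46 ± 0.07 (adjusted p = 0.00322) was larger than the spread within either group. In U266 CHEK1 was at 9.06, 9.62 and 9.00 FPKM with DMSO and at 7.13, 9.14 and 8.42 FPKM with DHA, with overlapping groups (-0.15 ± 0.09, adjusted p = 0.19).

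Of the ATM branch, the effector kinase fell in LP-1. CHEK2, the kinase that ATM activates (ENSG00000183765, chromosome 22, 28687743 to 28742422), was at 8.38, 8.5 and 10.3 FPKM with DMSO and at 3.56, 4.40 and 4.20 FPKM with DHA in LP-1. This was the largest fall among the 34 genes in that line, to 0.447 of the DMSO mean (-0.99 ± 0.11, adjusted p = 0.00129). In U266 it was at 11.9, 11.1 and 10.2 FPKM with DMSO and at 9.10, 10.1 and 9.64 FPKM with DHA. The U266 groups did not overlap, but the change of -0.18 ± 0.07 missed the threshold (adjusted p = 0.0758). It passed in 3 of 17 alternative settings, with limma adjusted p down to 0.035. CHEK2 has 4 annotated pseudogenes, so its level is uncertain where reads could be split among them. ATM itself (ENSG00000149311, chromosome 11, 108222484 to 108369102) was at 3.66, 4.71 and 2.11 FPKM with DMSO and at 4.10, 3.80 and 3.67 FPKM with DHA in LP-1. Its groups overlapped (0.16 ± 0.22, adjusted p = 0.59), and without DMSO replicate 3 the estimate was -0.09. In U266 ATM was at 5.62, 5.02 and 5.54 FPKM with DMSO and at 5.18, 5.39 and 5.01 FPKM with DHA (-0.04 ± 0.08, adjusted p = 0.695).

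Of the 4 genes that sense and trim a break, 2 rose in LP-1 and none passed the test in U266. RBBP8, which with MRE11 makes the first cut into the ends (ENSG00000101773, chromosome 18, 22798261 to 23026488), was at 14.3, 14.2 and 12.3 FPKM with DMSO and at 24.6, 24.4 and 26.5 FPKM with DHA in LP-1. The groups were far apart relative to their spread, a rise to 1.85 times the DMSO mean (0.84 ± 0.09, adjusted p = 0.00095). In U266, where RBBP8 was at 49.97, 47.0 and 48.6 FPKM with DMSO, the DHA libraries held 54.9, 52.7 and 49.3 FPKM, and the change of 0.10 ± 0.05 missed the threshold (adjusted p = 0.143). Without DHA replicate 3 it was 0.15, with an adjusted p of 0.0429. NBN, the subunit of MRN that binds ATM, was at 3.29, 3.29 and 2.84 FPKM with DMSO and at 4.86, 4.70 and 5.00 FPKM with DHA in LP-1 (0.50 ± 0.08, adjusted p = 0.00506). In U266 NBN was at 15.6, 14.3 and 15.2 FPKM with DMSO and at 16.6, 16.4 and 15.6 FPKM with DHA (0.10 ± 0.06, adjusted p = 0.194). The nuclease subunit MRE11 had lower means with DHA and was not called: in LP-1 the means were 10.2 with DMSO and 8.97 FPKM with DHA (-0.17, adjusted p = 0.134), and in U266 11.9 and 10.6 FPKM (-0.16, adjusted p = 0.0872). The DHA values of MRE11 lay below all DMSO values in each line, and without LP-1 DMSO replicate 3 the LP-1 change was -0.21 with an adjusted p of 0.0171. The U266 change of MRE11 passed in 2 of 17 alternative settings, with limma adjusted p down to 0.0289. RAD50, the subunit that tethers the ends, had LP-1 means of 0.617 with DMSO and 1.27 FPKM with DHA (0.51, adjusted p = 0.0547). This change passed in 6 of the 13 alternative settings that tested RAD50, which in LP-1 reached 1 FPKM only with DHA. RAD50 shares 79.7% of its exon bases with annotated neighbours, so its level is uncertain.

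The BRCA mediators held the largest rises in LP-1 and the calls that both lines share. BRCA1, the ubiquitin ligase that promotes end trimming and recruits PALB2 (ENSG00000012048, chromosome 17, 43044295 to 43170245), was at 2.80, 3.86 and 1.92 FPKM with DMSO and at 6.97, 6.99 and 6.54 FPKM with DHA in LP-1. That is a ratio of means of 2.39 and a change of 1.05 ± 0.18 (adjusted p = 0.00577), or 0.87 without DMSO replicate 3 (adjusted p = 0.0011). In U266 BRCA1 was at 21.1, 20.9 and 21.7 FPKM with DMSO and at 25.7, 24.5 and 23.5 FPKM with DHA. The U266 groups did not overlap either, and the rise was 0.20 ± 0.05 (adjusted p = 0.0114). Its adjusted p was 0.0601 once the trend with exon length was removed and 0.305 in the fit of all 12 libraries. BRCA2, which delivers the recombinase to single-stranded DNA (ENSG00000139618, chromosome 13, 32315474 to 32400266), was at 0.52, 0.86 and 0.39 FPKM with DMSO and at 2.18, 2.05 and 1.87 FPKM with DHA in LP-1. These levels rest on 74 to 440 reads per library, and BRCA2 was tested in LP-1 only because it reached 1 FPKM with DHA. With no filter it was called there too. The ratio of means was 3.45, the highest of the 34 genes, and the change was 0.94 ± 0.13 (adjusted p = 0.0029), or 1.88 on recovered reads with voom, which adds no 1 FPKM to the value. In U266 BRCA2 was at 7.56, 6.19 and 6.51 FPKM with DMSO and at 8.06, 9.37 and 7.95 FPKM with DHA. The groups were apart and the rise was 0.29 ± 0.09 (adjusted p = 0.028), which missed the threshold with no filter (adjusted p = 0.0861), with quantile normalization (0.0632) and without U266 DMSO replicate 2 (0.101), DMSO replicate 3 (0.0868) or DHA replicate 2 (0.103).

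PALB2 and BARD1 were each called in 1 line. PALB2, the bridge between BRCA1 and BRCA2 (ENSG00000083093, chromosome 16, 23603160 to 23641310), was at 4.88, 5.15 and 3.46 FPKM with DMSO and at 6.86, 6.54 and 6.55 FPKM with DHA in LP-1. The groups were apart (0.49 ± 0.13, adjusted p = 0.0281), but the adjusted p was 0.0656 with no filter and 0.0539 to 0.0978 without DMSO replicate 1 or any DHA library. In U266 PALB2 was at 15.0, 14.5 and 14.4 FPKM with DMSO and at 14.2, 15.0 and 13.7 FPKM with DHA (-0.03 ± 0.06, adjusted p = 0.711). BARD1, the partner of BRCA1 in the ubiquitin ligase (ENSG00000138376, chromosome 2, 214725646 to 214809711), was at 4.11, 4.62 and 3.19 FPKM with DMSO and at 4.26, 4.29 and 4.24 FPKM with DHA in LP-1. These groups overlapped (0.09 ± 0.12, adjusted p = 0.565). In U266 BARD1 was at 20.9, 18.8 and 20.6 FPKM with DMSO and at 25.1, 24.5 and 21.8 FPKM with DHA, a rise of 0.23 ± 0.07 (adjusted p = 0.0196). Its adjusted p was 0.0636 to 0.0734 without U266 DMSO replicate 2, DHA replicate 1 or DHA replicate 2, 0.06 with no filter, 0.0509 with no variance trend and 0.109 in the fit of all 12 libraries.

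The recombinase paralogs, which stabilise the recombinase on DNA, gave 2 calls in LP-1, both higher, and none in U266. RAD51D (ENSG00000185379, chromosome 17, 35092208 to 35121522) was at 2.90, 2.78 and 2.16 FPKM with DMSO and at 4.18, 4 and 4.08 FPKM with DHA in LP-1 (0.50 ± 0.10, adjusted p = 0.0114). Its partner XRCC2 (ENSG00000196584, chromosome 7, 152644779 to 152676165) was at 4.79, 5.46 and 3.61 FPKM with DMSO and at 7.82, 6.93 and 7.24 FPKM with DHA (0.58 ± 0.14, adjusted p = 0.0169). Both had DHA groups wholly above DMSO, and both lost the call in a smaller fit: RAD51D without DHA replicate 1 (adjusted p = 0.054) and XRCC2 with any 1 DHA library left out (0.052 to 0.0703). In U266 RAD51D was at 2.52, 2.49 and 2.27 FPKM with DMSO and at 2.24, 2.48 and 2.51 FPKM with DHA (-0.01 ± 0.11, adjusted p = 0.954). XRCC2 was at 9.18, 8.66 and 9.86 FPKM with DMSO and at 9.28, 9.53 and 8.44 FPKM with DHA there (-0.02 ± 0.07, adjusted p = 0.845). RAD51C did not follow RAD51D in LP-1: its means were 1.90 with DMSO and 1.55 FPKM with DHA (-0.18, adjusted p = 0.251). XRCC3 was at means of 2.47 and 3.01 FPKM (0.21, adjusted p = 0.1), and 76.7% of its exon bases overlap KLC1 on the other strand. In U266 the changes of RAD51C and XRCC3 were both 0.12 and not called, although RAD51C passed without DHA replicate 3 (0.17, adjusted p = 0.0363). RAD51B was too low to test in either line, at 0.54 to 1.28 FPKM in LP-1 and 0.716 to 1.61 FPKM in U266.

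RAD54L and RAD54B, translocases that help strand pairing, did not pass in either line. In LP-1 their changes were -0.03 and 0.06, and in U266 0.10 (adjusted p = 0.451) and 0.35 (adjusted p = 0.0803). RAD54B in U266 was at 1.62, 1.76 and 2.10 FPKM with DMSO and at 3.15, 2.73 and 2.00 FPKM with DHA, so that DHA replicate 3 alone overlapped DMSO. Without that library its change was 0.48 (adjusted p = 0.00816). RAD54B shares 59.1% of its exon bases with FSBP on the same strand. The helicases diverged in U266. BRIP1, a helicase that binds BRCA1 and is also the Fanconi gene FANCJ (ENSG00000136492, chromosome 17, 61681266 to 61863521), was at 12.6, 11.3 and 12.4 FPKM with DMSO and at 9.54, 9.76 and 9.51 FPKM with DHA there. The groups were apart, and the fall of -0.30 ± 0.06 (adjusted p = 0.00375) was the largest fall of the 34 genes in U266. BRIP1 was too low to test in LP-1, at 0.58 to 0.80 FPKM in the 6 libraries. BLM, the helicase that dissolves joined chromatids (ENSG00000197299, chromosome 15, 90717327 to 90816165), was at 16.5, 15.6 and 17.5 FPKM with DMSO and at 18.7, 20.5 and 18.5 FPKM with DHA in U266 (0.21 ± 0.06, adjusted p = 0.0248). BLM missed the threshold when DMSO replicate 1 was left out (adjusted p = 0.0644), or DMSO replicate 2 (0.0908) or DHA replicate 2 (0.0932) and with TMM-style scaling (0.0559). BLM was at 4.41, 4.23 and 3.81 FPKM with DMSO and at 5.33, 5.24 and 4.69 FPKM with DHA in LP-1, where the groups were also apart but the change of 0.24 ± 0.09 missed the threshold (adjusted p = 0.0694).

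Of the 8 genes of the Fanconi core complex, 5 were tested in LP-1 and 8 in U266, and 1 was called in each line. Of all tested genes 40.2% were called in LP-1 and 40.7% in U266. FANCE, which joins the core to FANCD2 (ENSG00000112039, chromosome 6, 35452356 to 35467103), was at 3.35, 3.70 and 3.28 FPKM with DMSO and at 4.53, 4.43 and 5.01 FPKM with DHA in LP-1. The groups were apart (0.35 ± 0.09, adjusted p = 0.0194), and the adjusted p was 0.0614 to 0.0885 without DMSO replicate 1 or any DHA library. In U266 FANCE was at 6.47, 6.58 and 6.10 FPKM with DMSO and at 5.73, 7.48 and 7.38 FPKM with DHA (0.08 ± 0.10, adjusted p = 0.539). FANCG, a scaffold of the core (ENSG00000221829, chromosome 9, 35073835 to 35080016), was at 13.2, 12.4 and 13.6 FPKM with DMSO and at 11.7, 11.4 and 11.5 FPKM with DHA in U266 (-0.17 ± 0.06, adjusted p = 0.0454). That call was lost on recovered reads (adjusted p = 0.148) and with any 1 library other than DMSO replicate 2 left out (0.0731 to 0.163). In LP-1 FANCG was at 3.03, 3.20 and 3.43 FPKM with DMSO and at 3.4, 3.85 and 3.5 FPKM with DHA, with overlapping groups (0.12 ± 0.09, adjusted p = 0.299). FANCA, the partner of FANCG (ENSG00000187741, chromosome 16, 89737549 to 89816657), had changes of opposite sign in the lines. It was at 1.41, 1.40 and 1.16 FPKM with DMSO and at 1.68, 1.95 and 1.73 FPKM with DHA in LP-1 (0.26 ± 0.10, adjusted p = 0.0725). In U266 it was at 5.45, 5.30 and 5.06 FPKM with DMSO and at 4.22, 4.76 and 4.17 FPKM with DHA (-0.22 ± 0.08, adjusted p = 0.0601). Neither line's change passed alone, but their difference did (-0.48 ± 0.12, U266 minus LP-1, adjusted p = 0.00822). Both changes passed, in opposite directions, with quantile normalization (limma adjusted p = 0.0308 in LP-1 and 0.0254 in U266) and with voom (0.0284 and 0.0261). FANCA passed in 4 of 16 alternative settings in LP-1 and in 6 of 16 in U266. ZNF276, on the other strand, overlaps 23.6% of the exon bases of FANCA.

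The other core genes stayed uncalled, though FANCF, FANCL and FANCM passed under some alternative settings. FANCF, an adaptor of the core, changed by 0.18 in LP-1 and -0.07 in U266, and FANCL, its ubiquitin ligase, by -0.15 and -0.25 (adjusted p = 0.217 and 0.066). With the exon length trend removed FANCF passed in LP-1 (0.29, adjusted p = 0.0209). FANCL passed in U266 in 5 of 17 alternative settings, with adjusted p down to 0.0232. FANCM, the translocase that brings the core to DNA, was at 0.56, 0.82 and 0.47 FPKM with DMSO and at 1.05, 0.99 and 1.23 FPKM with DHA in LP-1, too low to test although the groups were apart. In U266 FANCM was tested at means of 7.24 and 8.53 FPKM, again with groups apart (0.22, adjusted p = 0.0857). It passed there with voom on recovered reads (0.28, adjusted p = 0.0264). FANCB and FANCC were under 1 FPKM in every LP-1 library and changed by 0.05 and 0.10 in U266, uncalled. The pair that receives the ubiquitin showed no call in either line. FANCD2 (ENSG00000144554, chromosome 3, 10026414 to 10101930) was at 5.57, 5.66 and 4.47 FPKM with DMSO and at 5.06, 5.06 and 5.18 FPKM with DHA in LP-1 (-0.03 ± 0.10, adjusted p = 0.851). In U266 FANCD2 was at 17.3, 17.8 and 18.7 FPKM with DMSO and at 17.9, 16.6 and 17.4 FPKM with DHA (-0.05 ± 0.06, adjusted p = 0.52). Both pairs of groups overlapped. FANCI (ENSG00000140525, chromosome 15, 89243949 to 89317261) was at 5.66, 5.71 and 4.79 FPKM with DMSO and at 6.07, 6.22 and 5.92 FPKM with DHA in LP-1 (0.15 ± 0.09, adjusted p = 0.211). In U266 FANCI was at 29.4, 28.8 and 29.6 FPKM with DMSO and at 28.3, 27.2 and 26.5 FPKM with DHA (-0.10 ± 0.05, adjusted p = 0.137). Its DHA values thus lay above all DMSO values in LP-1 and below all of them in U266, and neither change passed in these fits. With the exon length trend removed FANCI passed in U266 (-0.15, limma adjusted p = 0.0445).

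Among the nucleases that cut joined molecules, EME1 alone was called, and in U266. EME1, the regulatory partner of MUS81 (ENSG00000154920, chromosome 17, 50373220 to 50381483), was at 9.96, 8.16 and 8.48 FPKM with DMSO and at 13.6, 11.2 and 11.5 FPKM with DHA there. All DHA values lay above all DMSO values (0.41 ± 0.09, adjusted p = 0.00535). In LP-1 EME1 was at 7.32, 7.73 and 6.20 FPKM with DMSO and at 6.75, 6.71 and 7.46 FPKM with DHA, with overlapping groups (-0.02 ± 0.10, adjusted p = 0.904). LRRC59, on the other strand, overlaps 16.4% of the exon bases of EME1. MUS81, the catalytic subunit (ENSG00000172732, chromosome 11, 65857126 to 65867653), was at 14.6, 12.8 and 14.4 FPKM with DMSO and at 16.4, 16.4 and 15.4 FPKM with DHA in LP-1. The groups were apart and the change of 0.19 ± 0.08 missed the threshold (adjusted p = 0.0999), but passed without DMSO replicate 3 (0.22, adjusted p = 0.0355). In U266 MUS81 was at 7.97, 8.02 and 7.53 FPKM with DMSO and at 7.89, 8.08 and 8.02 FPKM with DHA (0.03 ± 0.07, adjusted p = 0.786). The scaffold SLX4 was uncalled in both lines (0.37 ± 0.24, adjusted p = 0.247, in LP-1, where DMSO replicate 3 held 0.95 FPKM and the other DMSO libraries 2.18 and 2.76 FPKM).

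**Figure D2:**
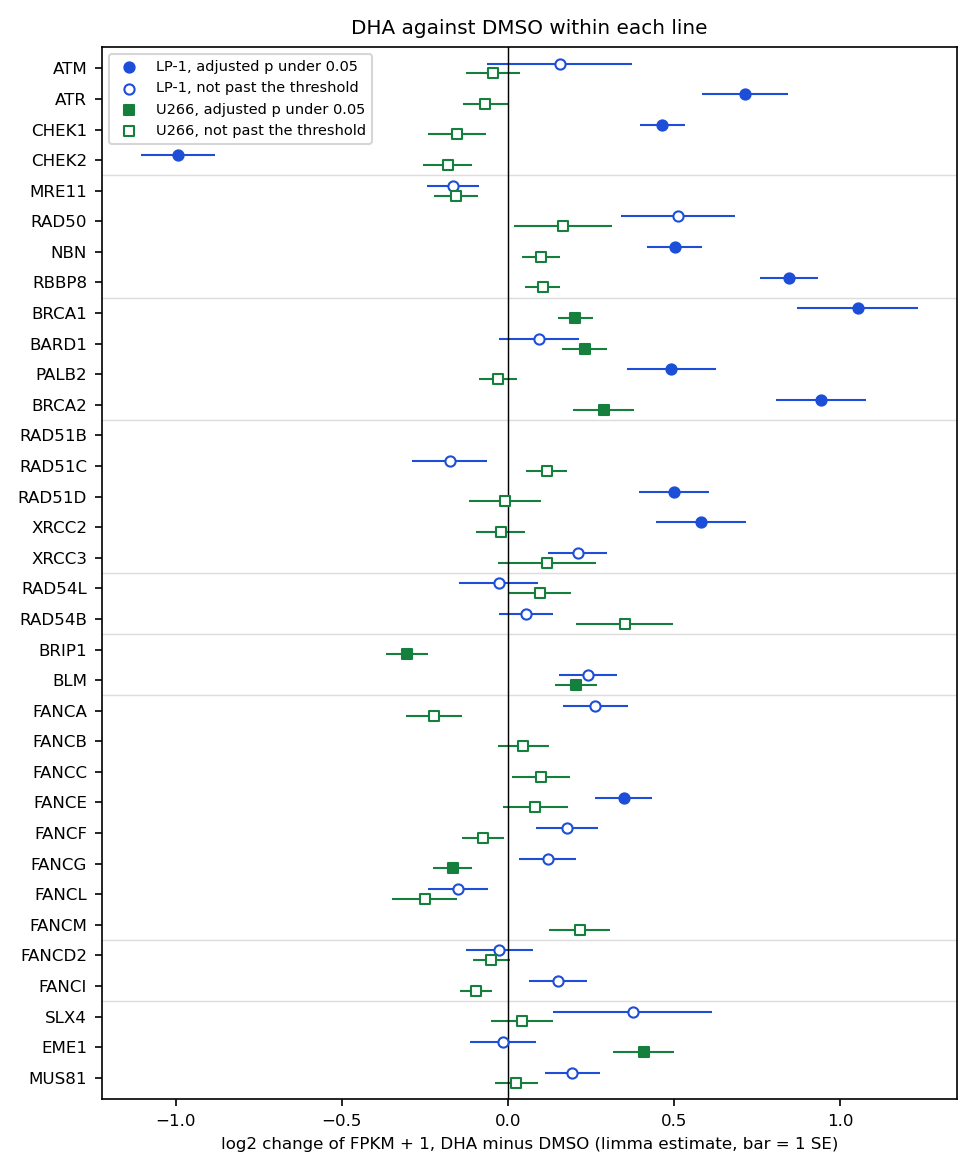
Change of log2(FPKM + 1), DHA minus DMSO, of each gene in LP-1 (blue circles) and U266 (green squares) with bars of 1 SE, filled where the limma adjusted p is under 0.05; untested genes have no point. The LP-1 points run from -0.99 for CHEK2 to 1.05 for BRCA1, while the U266 points lie between -0.30 for BRIP1 and 0.41 for EME1.

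Whether the lines differed was tested with the interaction over all 12 libraries, since a call in 1 line alone does not show it. Of 29 genes tested in both lines, 11 had a lower change in U266 than in LP-1 (37.9%, where 18.5% of 8933 genes did) and 2 a higher one (6.90%, where 16.0% did). The 11 were ATR, CHEK1, NBN, RBBP8, BRCA1, PALB2, BRCA2, RAD51D, XRCC2, FANCA and FANCG, and the 2 were CHEK2 and EME1. The difference in FANCG was lost in 12 of 21 alternative settings, and that in EME1 in 9 of 22. The most certain difference was in RBBP8 (-0.74 ± 0.10, U266 minus LP-1, adjusted p = 0.000298), followed by CHEK2 (0.81 ± 0.14, adjusted p = 0.00101) and CHEK1 (-0.62 ± 0.11, adjusted p = 0.0017). BRCA1 and BRCA2, although called higher in both lines, also differed in size, by -0.85 ± 0.19 (adjusted p = 0.00592) and -0.65 ± 0.16 (adjusted p = 0.00952). They were the 2 of 29 genes called higher in both lines (6.90%, where 10.2% of all were). BRCA2 entered the LP-1 test only through its level with DHA. No gene of the 29 was called lower in both (6.06% of all) or in opposite directions (3.78% of all). With quantile normalization and with voom, FANCA was called higher in LP-1 and lower in U266. The difference in BARD1, called in U266 alone, was 0.14 ± 0.14 (adjusted p = 0.475), and that in BLM -0.04 ± 0.11 (adjusted p = 0.824), so for these genes no difference between the lines was detected. The levels themselves are not compared between lines, because the 2 tables were made separately.

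Exon length moved with the LP-1 result. Over all tested LP-1 genes with a length, the median change rose from -0.20 for exons under 2 kb to 0.23 for those over 8 kb, and without DMSO replicate 3 from -0.13 to 0.13. In U266 it ran from -0.06 to 0.06. Several of the repair genes are long: 9 of the 29 tested in LP-1 have over 8 kb of exon, counted over all annotated transcripts, among them BRCA1, BRCA2, ATR, RAD51D and RAD50. Across genes, the correlation of the LP-1 change with log2 exon length was 0.17 over 12270 genes and 0.35 over the 29 (Pearson, a description, since the genes share libraries). With the length trend removed from each library, 13 of 29 were called in LP-1 (44.8%, and 44.8% of all genes too), 11 higher (37.9%, against 22.7%) and 2 lower (6.9%, against 22.1%). The 11 calls made without that step kept their direction. The changes were then 0.87 for BRCA1, 0.69 for BRCA2, 0.46 for ATR and 0.27 for RAD51D (adjusted p = 0.00153, 0.0026, 0.00317 and 0.0339). RBBP8, at 0.81, and CHEK2, at -0.99, are of middle length and moved by little. FANCD2, also over 8 kb, was at -0.18 (adjusted p = 0.0516) and ATM at -0.22 (0.0731). In U266 removing the trend left 3 called higher and 5 lower (24.2% called, against 40.6% of all genes), without BRCA1 (adjusted p = 0.0601) and BLM (0.0641).

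**Figure D3:**
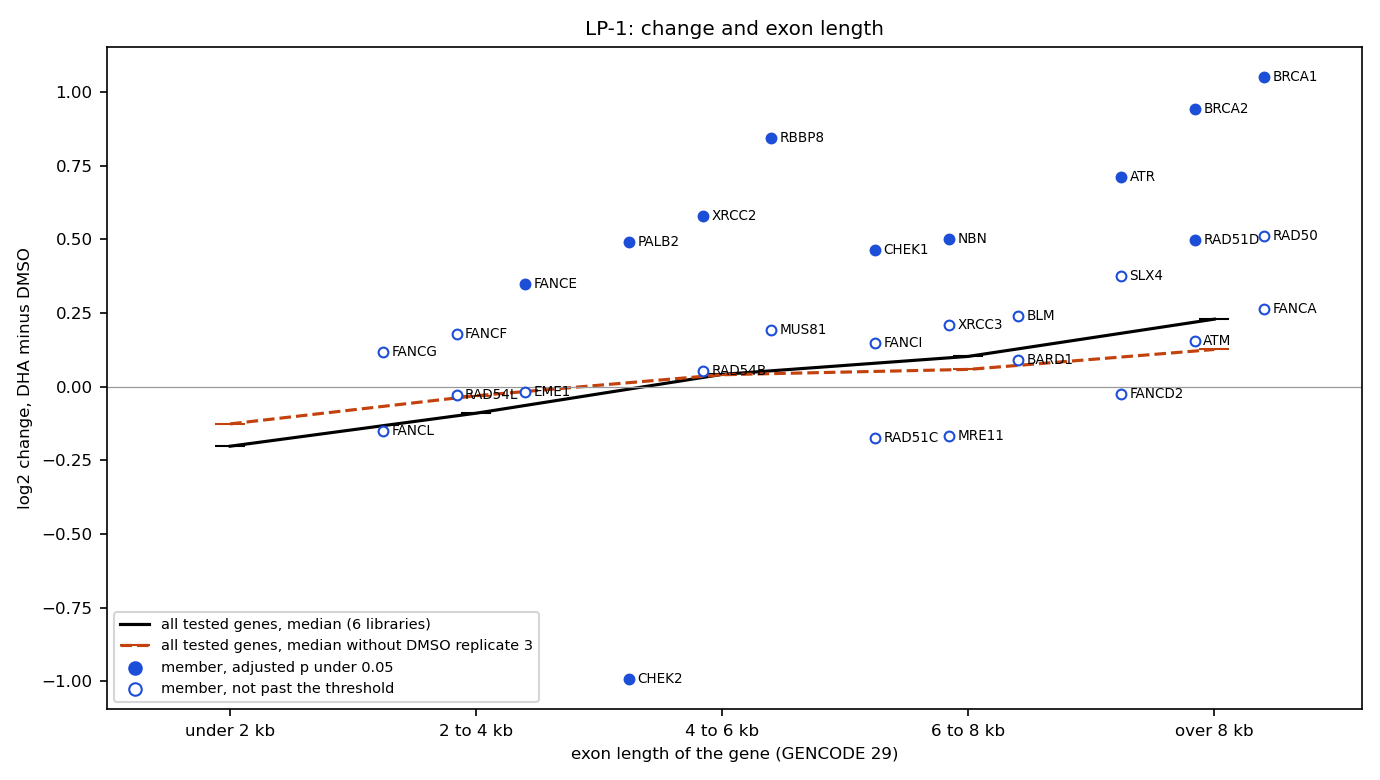
Change of log2(FPKM + 1) in LP-1 by exon length, with the median of all tested genes per length class (black, all 6 libraries; dashed orange, without DMSO replicate 3) and each of the 29 tested repair genes (filled, past the threshold), spread sideways within its class for legibility. The black medians climb from -0.20 to 0.23; BRCA1 at 1.05, BRCA2 at 0.94 and ATR at 0.71 lie above the median of the longest class, and CHEK2 at -0.99 lies far below that of its own.

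A wider list of 61 partners in the same pathways was followed with the same fits. In LP-1 15 of 59 tested partners were called higher (25.4%, against 20.0% of all genes) and 5 lower (8.47%, against 20.2%), with a median change of 0.20. In U266 16 of 59 were called higher (27.1%, against 21.1%) and 12 lower (20.3%, against 19.6%), with a median of 0.11, so these shares were near those of all genes. In LP-1 the count of 20 was 13 with no filter (21.3%, against 14.4% of all genes) or without DMSO replicate 1 (22%, against 27.1%). It was 10 with any 1 DHA library left out (16.9%, against 22.9 to 23.4% of all genes). In U266 the count of 28 was 18 without DMSO replicate 3 (30.5%, against 33%). The largest rise in either line was in FIGNL1, an ATPase of recombination, from 18.3 ± 1.47 to 85.7 ± 2.21 FPKM in LP-1 (mean ± SD, n = 3; 2.17, adjusted p = 5.06e-05) and from 18.0 ± 0.409 to 34.8 ± 1.37 FPKM in U266 (0.91, adjusted p = 6.15e-07). REV3L, the catalytic subunit of polymerase zeta that bypasses damaged bases, rose from 1.92 ± 0.68 to 4.23 ± 0.202 FPKM in LP-1 (0.87, adjusted p = 0.0098). EXO1, the long-range resection nuclease, rose from 8.97 ± 0.789 to 16.3 ± 0.878 FPKM in LP-1 (0.80, adjusted p = 0.00125). RPA1, the large subunit of the protein that coats single strands, fell from 27.2 ± 1.32 to 19.1 ± 0.0458 FPKM (-0.49, adjusted p = 0.00299).

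The other LP-1 falls by the naming rule were in the Fanconi branch. ERCC1, part of the unhooking nuclease, fell from 7.83 ± 0.607 to 4.35 ± 0.27 FPKM (-0.72, adjusted p = 0.00164), and UBE2T, the ubiquitin-conjugating enzyme of FANCL, from 34.1 ± 6.74 to 21.9 ± 0.801 FPKM (-0.60, adjusted p = 0.0165). In U266 the rises after FIGNL1 were in RAD51AP1, a recombination accessory protein, from 8.58 ± 1.15 to 13.8 ± 0.998 FPKM (0.64, adjusted p = 0.000353), and in RMI2, a partner of BLM, from 5.39 ± 0.776 to 8.87 ± 2.59 FPKM (0.60, adjusted p = 0.0152). The U266 falls were in TIPIN, a fork protection factor, from 20.1 ± 1.57 to 12.7 ± 0.819 FPKM (-0.62, adjusted p = 7.8e-05), in CENPX, a histone-fold partner of FANCM, from 13.9 ± 1.63 to 8.83 ± 0.76 FPKM (-0.60, adjusted p = 0.000475), and in H2AX, the histone phosphorylated at breaks, from 71.8 ± 3.37 to 52.4 ± 5.34 FPKM (-0.45, adjusted p = 0.00064). RMI2 in U266 was highest in DHA replicate 3, at 11.6 FPKM, against 6.53 and 8.43 FPKM in the other DHA libraries.

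Genes of other processes were counted beside the 34. Of all tested genes, 20.0% were called higher and 20.2% lower in LP-1, and 21.1% higher and 19.6% lower in U266. Of 24 S-phase genes tested in each line, 10 were called higher (41.7%) and 6 lower (25%) in LP-1, with a median of 0.24. In U266 2 were called higher (8.33%) and 17 lower (70.8%), with a median of -0.33. This difference between the lines was not tested as such. The repair genes had medians of 0.21 and 0.04. The LP-1 count of 16 S-phase genes was 8 to 10 with any 1 DHA library left out. In those fits 22.9 to 23.4% of all genes were called, against 40.2% with all 6 libraries. Of 19 tested mitosis genes 4 were called higher and 3 lower in LP-1, and 5 higher and 4 lower in U266. End joining, the repair route that needs no sister, had 3 higher and 0 lower of 10 in LP-1 and 2 higher and 3 lower in U266. Mismatch repair had 4 higher and 1 lower of 7 in LP-1 and 1 higher and 2 lower in U266. The part that cell cycle phase has in the repair genes' changes was not tested.

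**Figure D4:**
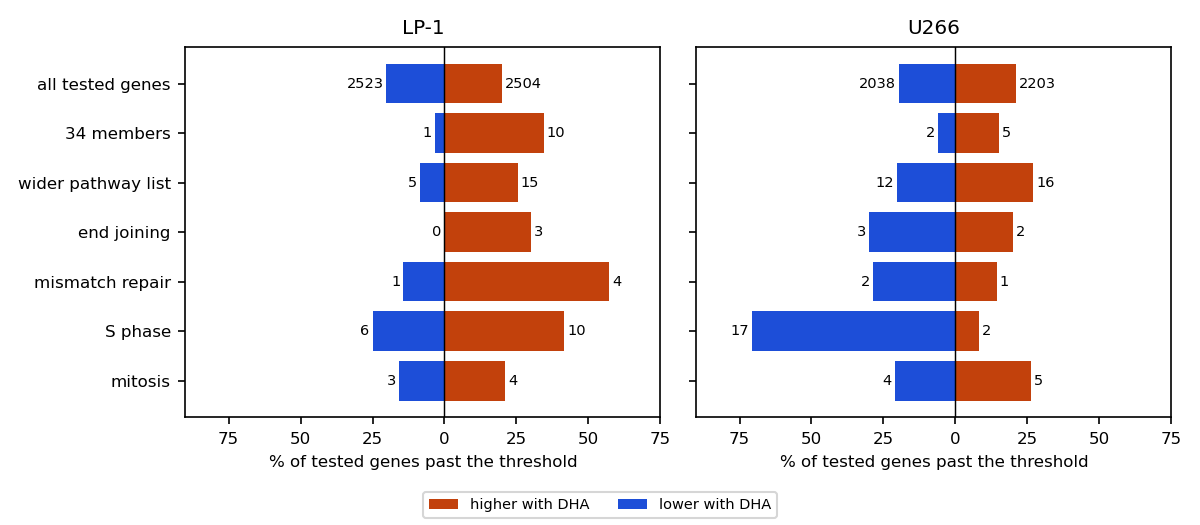
Share of tested genes called higher (orange, to the right) and lower (blue, to the left) with DHA in each list and line, with the number of genes beside each bar. The 34 repair genes reach 10 higher and 1 lower in LP-1 and 5 higher and 2 lower in U266, next to 2504 higher and 2523 lower of all tested LP-1 genes and 2 higher and 17 lower S-phase genes in U266.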

How the data were processed

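The 12 libraries were built from total RNA with a SMARTER mRNA-Seq kit, per the labels. The authors deposited FPKM values in 1 table per line, with Ensembl IDs for LP-1 and symbols for U266. Per the submitters' processing notes the builds were GRCm38 and mm10, which are mouse builds, although the rows are human genes; the sources used here name no aligner, counter, strand setting or annotation. The 34 genes and all lists were chosen with earlier results of these data known. Exon lengths, IDs and overlaps came from GENCODE 29 (GRCh38). Reads were recovered from FPKM steps; 87.2 to 90.3% of low values in LP-1 and 93.6 to 94.4% in U266 were within 0.1 read of a whole number. Each scale was halved for as long as at least 80% of the values stayed whole, and its multiples remain possible.

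Each line was fitted alone on log2(FPKM + 1) with limma 3.58.1 (lmFit, eBayes with trend) in R 4.3.3, and the lines were compared by the interaction over 12 libraries. Values in every library were given for genes called in either line or between lines, and for ATM, ATR, CHEK1, CHEK2, BRCA1, BRCA2, FANCD2, FANCI and MUS81; of the wider list, the 3 largest called rises and falls per line. Library values of other genes were picked once seen. The alternatives changed the filter (none, or an average of 5 FPKM), the scaling (quantile, or TMM-style with trims of 30% and 5%), the pseudocount (0.1), the variance model (array weights, no trend, all 12 libraries together) and the libraries used (a replicate block, each left out in turn). Removing the exon length trend (lowess, span 0.3) and voom on recovered reads were added after seeing the data; voom called 5103 genes in LP-1 and 4460 in U266. The fits were tested on simulated data. Intervals of reads cover counting error only.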

Additional observations from a re-analysis of the deposited data

Results flagged for a closer look

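The effect of DHA differed between the lines by the interaction test in 13 of the 29 genes tested in both (44.8%, against 34.5% of all genes). Each is given as the U266 change minus the LP-1 change in log2(FPKM + 1). Lower in U266 were BRCA1 (-0.85), ATR (-0.78), RBBP8 (-0.74), BRCA2 (-0.65), CHEK1 (-0.62), XRCC2 (-0.60), PALB2 (-0.52), RAD51D (-0.51), FANCA (-0.48), NBN (-0.40) and FANCG (-0.29). Higher in U266 were CHEK2 (0.81), whose fall was the larger in LP-1, and EME1 (0.43). The limma adjusted p ran from 0.000298 for RBBP8 to 0.0422 for FANCG. FANCG was lost in 12 of 21 alternatives and EME1 in 9 of 22, most of them fits without 1 library. BRCA2 could not be tested without LP-1 DHA replicate 1, 2 or 3, when it missed the filter.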

How the results depend on the processing

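Of the 11 calls in LP-1, those of ATR, CHEK1, CHEK2, NBN, RBBP8, BRCA1 and BRCA2 passed under every alternative in which the gene was tested, and in U266 those of BRIP1 and EME1 did so too. BRCA2 was tested in LP-1 in 13 alternatives, against 17 for CHEK1. It missed the filter at a mean of 5 FPKM and without any 1 DHA library, so its call was not tried there. A mean of at least 5 FPKM tested 11 members. In LP-1 it called 5 (45.5%) and 3034 of all genes (44%). Between the lines it called 6 (54.5%) and 2025 of all genes (37.3%). With array weights, whose estimate stopped before convergence, LP-1 gave 24 members (82.8%), 48 partners (81.4%) and 10193 of all genes (81.5%). The line difference then gave 19 members (65.5%) and 5769 of all genes (64.6%). With no filter 3 members were called in U266 (8.82%, against 17.7% of all genes) and 13 partners in LP-1 (21.3%, against 14.4%). Quantile normalization called 11 members in U266 (33.3%, against 41% of all genes). All 12 libraries in 1 fit called 2 members (6.9%), 17 partners (29.8%) and 2551 of all genes (28.6%) in U266.

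Leaving out 1 library gave 6 to 13 members in LP-1 (22.2 to 46.4%), beside 2783 to 6745 of all genes (22.9 to 56%). Partners ran there from 10 to 30 (16.9 to 50.8%) and S-phase genes from 8 to 16 (33.3 to 66.7%). In U266 it gave 5 to 9 members (15.2 to 27.3%), beside 3417 to 4294 of all genes (33 to 42.1%). Partners ran there from 18 to 25 (30.5 to 42.4%) and S-phase genes from 17 to 19 (70.8 to 79.2%). Between the lines it gave 10 to 15 members (37 to 53.6%), beside 2320 to 4169 of all genes (26.2 to 47.4%). Uncalled changes that turned sign were RAD54L in LP-1 (0.014 with quantile normalization) and, with quantile normalization in U266, FANCB (-0.00023), SLX4 (-0.056) and MUS81 (-0.025). With the length trend removed these were ATM (-0.22), RAD54L (0.059), FANCL (0.0060) and EME1 (0.064) in LP-1, and SLX4 (-0.0085) and MUS81 (-0.0051) in U266; RAD51D in U266 was 0.0073 with voom. Leaving out 1 library also turned ATM (-0.088 to 0.35), BARD1 (-0.026 to 0.19), EME1 (-0.097 to 0.042), FANCD2 (-0.12 to 0.025) and RAD54L (-0.13 to 0.057) in LP-1, and FANCB (-0.017 to 0.082), MUS81 (-0.00011 to 0.040), RAD51D (-0.042 to 0.027), XRCC2 (-0.062 to 0.026) and XRCC3 (-0.0050 to 0.22) in U266.

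Whether the replicate numbers pair the libraries cannot be settled with 3 replicates per group. Same-numbered deviations correlated at 0.07, 0.02 and 0.18 in LP-1, and differently numbered ones at -0.17 to 0.16. In U266 the same-numbered values were -0.04, -0.08 and -0.02, and the others -0.02 to 0.07. With the replicate number as a block 10 members were called in LP-1 (without FANCE), 5 in U266 (without BLM and FANCG) and 12 between the lines (without FANCG). These were 34.5%, 15.2% and 41.4%, against 36.4%, 37.3% and 32.3% of all genes. The cause of these moves was not tested, apart from fewer genes or libraries where the setting has them.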
